A study of Mus musculus with 82 samples.

Results

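H3K27ac chromatin immunoprecipitation followed by sequencing (ChIP-seq) was compared at 96 h after aggregation between Del(CBS1-2) stembryos and wt stembryos, with 2 libraries of each genotype. These 4 libraries were taken by their labels from the 82 samples of the series, of which 21 are H3K27ac libraries. Stembryos are aggregates of mouse embryonic stem (mES) cells that receive a pulse of the GSK-3 inhibitor Chiron and then elongate like a posterior body axis. Both genotypes derive from EmbryoMax 129/SVEV mES cells and were cultured and pulsed the same way, and each library was made from a pool of stembryos.

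Del(CBS1-2) cells lack the CTCF binding sites CBS1 and CBS2 of the HoxD cluster. CBS2 was removed by CRISPR/Cas9 on top of the earlier Del(CBS1) line and the edited cells were picked as clones, so the genotype stands for clonally derived cells that passed through more rounds of selection than wt cells. The wt cells carry all CTCF sites. The labels describe the cells under the tag cell line for Del(CBS1-2) and cell type for wt, and the sequencing read lengths given for the libraries also differ between the genotypes. Genotype, clone, label tag and read length cannot be told apart in these data. A further wt library at 96 h, from a wt time course with 1 library a stage and no replicate number, is given beside the results as the unnumbered wt library. It was kept out of the comparison itself and added to it only where stated.

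H3K27ac is an acetylation of histone H3 deposited at active promoters and enhancers. Hox genes lie in clusters and are switched on in the order of their position, from Hoxd1 and Hoxd3 towards Hoxd13, as the body axis extends. CTCF bound to DNA stops the cohesin complex as it extrudes chromatin loops and can separate active from inactive stretches of a cluster.

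The deleted sites were checked in a CTCF library of the same genotype. Of the 9 CTCF sites of the cluster, the Del(CBS1-2) list held regions at CBS3 to CBS9 and none at CBS1 or CBS2, while the wt CTCF lists at 72 h and 168 h held regions at all 9. The reference sequences below, read from RefSeq GRCm38 on the plus strand, are shown because they are the CTCF matches that the wt cells carry and the mutant lacks. Capitals mark the best match to a matrix of 19 positions built from 2000 wt CTCF summits. The same threshold was met by 50.8% of 2000 other CTCF summits and by 5% of control positions.

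CBS1: gcttTGTCCAGGAGGAGGCGCTGtagg
CBS2: cattTGGCCACTAGAGAGCGCTGttgc

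CBS1 was matched at chr2:74715914-74715940 (mm10) with a score of 14.66, within intron sequence of the long transcripts of Hoxd3 and Hoxd4. CBS2 was matched at chr2:74702388-74702414 with a score of 16.17, between Hoxd9 and Hoxd8. The threshold score was 5.795.

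The lists held 55940 and 56828 merged regions in Del(CBS1-2) and 59284 and 50882 in wt. The height of a region was taken as its summit pileup, the number of fragments that cover the highest summit, solved from the deposited fold enrichment and p-value. The lowest local background of a list, which follows sequencing depth, was 3.93 and 3.69 fragments in Del(CBS1-2) and 3.74 and 3.36 fragments in wt. The 95th percentile of summit pileup stood at 36.3 and 40.7 times that background in Del(CBS1-2), at 32.1 and 32.0 times in the Del(CBS1) libraries of 96 h, at 28.3 and 28.0 times in wt, and at 37.2 times in the unnumbered wt library. Peaks thus stood higher over background in both Del(CBS1-2) lists than in both replicates of wt, and about as high as in the unnumbered wt list.

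Over regions with a mean pileup of at least 60, the wt replicates differed by a chi-square of 0.989 per region, which is no more than sampling noise, and the Del(CBS1-2) replicates by 1.27. The replicate pairs of Del(CBS1) at 96 h and of Del(CBS1-2), Del(CBS1) and wt at 120 h gave 1.11 to 1.18. The study reports biological duplicates where mutant and wt were compared, each a pool of stembryos. It says that some replicates came from different cultures, but not which, so the wt replicates are not known to be separate cultures. Every library is therefore printed, no mean and spread are given for the wt pair alone, and p-values measure only the spread between these libraries. The limma differences and SE count the wt pair as 2 samples, except where it is counted as 1. The comparison of a Del(CBS1-2) with a wt library gave 2.48 to 3.87 per region. The unnumbered wt library stood farther from the wt replicates, at 4.95 and 3.94, than the mutant libraries did.

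In the HoxD cluster, from Evx2 to Hoxd1, H3K27ac was higher in Del(CBS1-2) at the shared upstream start of Hoxd3 and Hoxd4, which lies between the deleted sites. On the Hoxd1 side of CBS1, none of the 12 tested regions was called different with median scaling, and the region at the Hoxd3-205 start was called in both Del(CBS1-2) lists and in neither wt replicate. The 4 lists gave 24 regions in the cluster, 14 of them in all 4 lists, 3 in both Del(CBS1-2) lists and no wt list, 4 in a single list, 3 in other combinations and none in both wt lists alone. No region was called over Evx2 and Hoxd13 to Hoxd10, the posterior genes, in any of the 4 lists. With limma on pileups scaled to a common median, 1 of the 14 tested regions was higher and 0 were lower at an adjusted p under 0.05, against 16.7% of 31435 tested regions higher and 6.73% lower genome-wide. At an unadjusted p under 0.05, limma gave 2 higher and 5 lower in the cluster. With quantile normalization, 1 was higher and 6 were lower, against 2.22% and 3.25% genome-wide. Quantile fits with 1 library left out had 2.38 to 2.60 degrees of freedom, against 17.6 with all 4 libraries. They cannot show whether these calls depend on a single library.

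**Figure D1:**
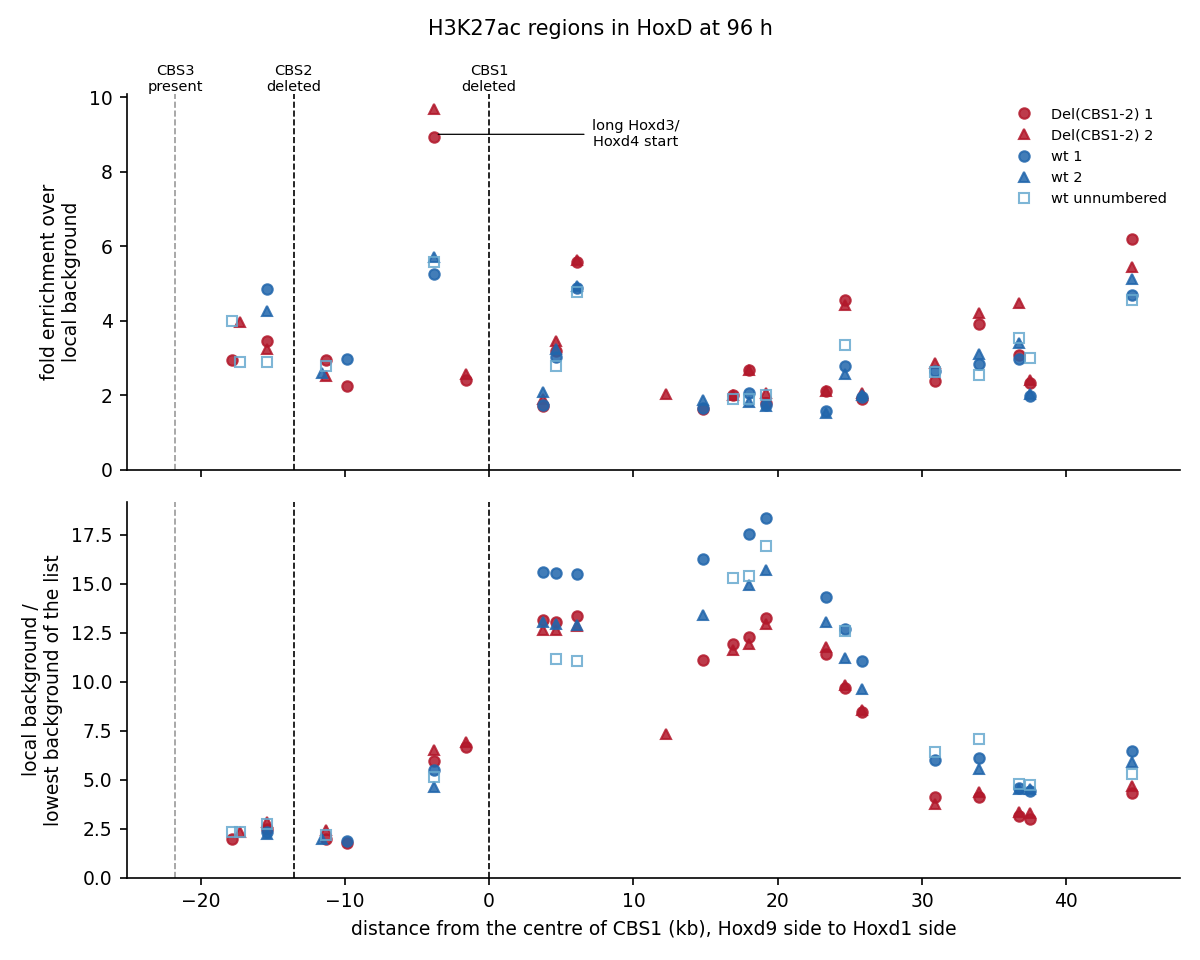
Fold enrichment at the highest summit (top) and local background over the lowest background of the list (bottom) for each H3K27ac region of HoxD at 96 h, against its distance from the centre of CBS1 in kb; red, Del(CBS1-2) libraries, blue, wt replicates, open squares, the unnumbered wt library. The long Hoxd3/Hoxd4 start stood at 8.94 and 9.68 in Del(CBS1-2) against 5.24 and 5.70 in wt, and most local backgrounds to the right of CBS1 were lower in Del(CBS1-2).

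The region that rose covers chr2:74711601-74712761 and holds the first noncoding exon of the long transcripts Hoxd3-203 and Hoxd4-203, with the antisense RNA gene Hoxd3os1 over it. Its summit pileup was 218 and 242 fragments in Del(CBS1-2), against 112 and 94 in wt and 115 in the unnumbered wt library. The groups did not overlap, and both mutant libraries were above all 3 wt libraries. The difference was 0.89 on the log2(pileup + 1) scale after median scaling (SE 0.13, limma adjusted p = 2.27e-08), and 32.8% of all 13266 promoter regions tested were called higher under the same scaling.

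The call held when any of the 4 libraries was left out, with limma adjusted p between 4.06e-06 and 0.000203, and with the wt replicates counted as 1 sample (7.8e-06). It was smaller under quantile normalization, at 0.55 (limma adjusted p = 0.0154). It was lost once the GC content of the region, 69.5%, was corrected for (0.34, limma adjusted p = 0.106). With the unnumbered wt library added the difference was 0.88 (limma adjusted p = 0.367). That fit called 0 of 27287 regions, so the missing call is not particular to this region. Fold enrichment over the region's own surroundings was 8.94 and 9.68 in Del(CBS1-2) and 5.56 and 6.48 in Del(CBS1), against 5.24 and 5.70 in wt and 5.56 in the unnumbered wt library. This measure takes no scaling factor, but it carries the overall height of a list's peaks over background. Peaks above 5-fold numbered 14806 and 16399 in Del(CBS1-2), 11751 and 11361 in wt and 11926 in the unnumbered wt library. The part of that height in this region was not tested. The Del(CBS1) pileups were 146 and 151 fragments. The Del(CBS1) libraries are set against the same wt libraries, so the comparisons share their controls.

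The start sites of the Hoxd3 and Hoxd4 transcripts in this stretch are printed because the regions that differ lie on them. The sequences are RefSeq GRCm38, plus strand, with the first transcribed bases of the GENCODE vM21 transcript in capitals.

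Hoxd3-203 start: caggcgaatttgcccCCGCATTCTGCTTTC
Hoxd4-201 start: ggctatttataagcaCGTGATTCCAATAAA
Hoxd3-205 start: gtcccttaagaaacaCGGAGTCGTCATTAA

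They lie at chr2:74711912-74711941 for the long start, between CBS2 and CBS1, and at chr2:74721963-74721992 and chr2:74732898-74732927 for the other starts, both on the Hoxd1 side of CBS1. Hoxd3 and Hoxd4 encode transcription factors that give anterior trunk levels their identity.

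At the internal Hoxd4-201 start the region chr2:74721362-74722853 was the highest of the cluster. Its pileup was 297 and 271 fragments in Del(CBS1-2), against 287 and 218 in wt and 208 in the unnumbered wt library, and the groups overlapped. The difference was -0.08 with median scaling (limma adjusted p = 0.609) and -0.42 with quantile normalization (limma adjusted p = 0.0227). It was -0.29 with GC correction (limma adjusted p = 0.0749), and 0.05 with the unnumbered wt library added.

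The pileup of the long start was then expressed as a share of itself plus the Hoxd4-201 start, which compares both starts within a library. The starts differ in GC content, 69.5% at the long start and 44% at the Hoxd4-201 start, and differences between libraries ran with GC content. The share is not corrected for this, and the part of GC content in it was not tested. The share was 42.3% and 47.2% in Del(CBS1-2), with exact 95% intervals of 38.0 to 46.7% and 42.8 to 51.6%. In wt it was 28.1% and 30.1%, with intervals of 23.7 to 32.8% and 25.1 to 35.6%, and 35.6% in the unnumbered wt library (30.4 to 41.1%). These intervals cover counting error only. The mutant libraries were above all 3 wt libraries by their point values, with a difference of 15.7 percentage points. The exact two-sided permutation p was 0.333, the smallest that 2 against 2 allow, and 0.1, again the smallest, with the unnumbered wt library (13.5 points).

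Del(CBS1) stembryos had shares of 33.6% and 38.5% at 96 h, between Del(CBS1-2) and the wt replicates and overlapping the unnumbered wt library. At 120 h the share was 56.4% and 60.5% in Del(CBS1-2), 55.9% and 59.6% in Del(CBS1), and 49.5% and 46.4% in the wt replicates. The unnumbered wt library of 120 h had 69.8%, above every mutant library, so the order seen against the replicates does not hold against the time course at that stage. Over the unnumbered wt time course the share was 42.6% at 84 h and 35.6% at 96 h. It was 67.9% by 108 h and lay between 69.8% and 72.4% from 120 h to 168 h.

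**Figure D2:**
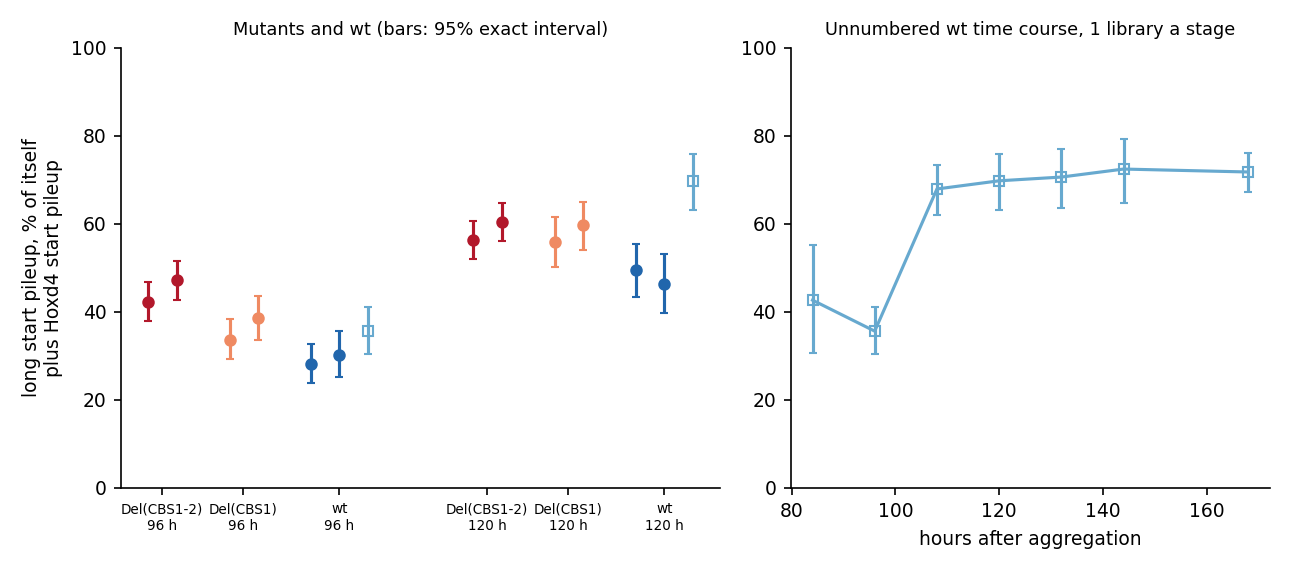
Long Hoxd3/Hoxd4 start pileup as a percentage of itself plus the Hoxd4-201 start pileup, by genotype and stage (left; bars are exact 95% intervals for counting error) and over the unnumbered wt time course in hours (right). At 96 h Del(CBS1-2) had 42.3% and 47.2% against 28.1% and 30.1% in the wt replicates, and at 120 h the unnumbered wt library had 69.8%.

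Also between CBS2 and CBS1, the region chr2:74714194-74714551, in the first intron of the long transcripts, was called only in the mutant lists. It had 65 and 67 fragments in Del(CBS1-2) and 77 and 62 in Del(CBS1), and no call in either wt replicate or in the unnumbered wt library. At 120 h it was called in every replicate, with 166 and 164 fragments in Del(CBS1-2), 113 and 113 in Del(CBS1), and 100 and 93 in wt. In the unnumbered wt time course it was first called at 120 h, with 75 fragments. Genome-wide, 3406 of 84819 union regions (4.02%) were in both Del(CBS1-2) lists and in neither wt list. The local background at its summit was 26.3 and 25.6 fragments in Del(CBS1-2).

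The region holds the letters TTTATNG, a core of the sites bound by the caudal factors CDX1, CDX2 and CDX4, which drive posterior growth. The stretch below is chr2:74714310-74714336, plus strand, RefSeq GRCm38, with the match in capitals, and a match is a description of the letters, not of binding. The search covered the whole region, on both strands. Windows of the same 358 bp around all distal summits held these letters in 15.2%, and so did 6 other HoxD regions, the Hoxd4-201 start region among them.

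CDX letters at 74714320: caaacttctaTTTATAGactggggagc

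Hoxd8, a central gene that lies between both deleted sites, had little H3K27ac. A region at chr2:74704559-74704793 in a noncoding Hoxd8 exon was called at 25 and 24 fragments in Del(CBS1-2) and at 38 and 30 in Del(CBS1), in neither wt replicate, and at 25 in the unnumbered wt library. Next to it, chr2:74704312-74704486 was called only in the second wt replicate, at 19 fragments, so the Hoxd8 start was not without a wt call. A region in its coding exon, chr2:74705974-74706367, had 17 fragments in 1 Del(CBS1-2) list and 23 in 1 wt list. Over Hoxd9, beyond CBS2, 2 coding exon regions were each called in 1 Del(CBS1-2) list, at 25 and 37 fragments, in no wt replicate and in the unnumbered wt list at 39 and 28. An intergenic region between Hoxd9 and CBS2, chr2:74700219-74700948, had 36 and 36 fragments in Del(CBS1-2) against 46 and 35 in wt, and was not called different (limma adjusted p = 0.151). The noncoding Hoxd8 call and both Hoxd9 calls were thus present in the unnumbered wt library as well as in the mutant.

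The remaining region called in both mutant lists and no wt replicate was chr2:74732678-74733117, at the Hoxd3-205 start. It had 95 and 87 fragments in Del(CBS1-2), 111 and 97 in Del(CBS1) and 114 in the unnumbered wt library. The neighbouring Hoxd3 region, chr2:74733609-74734469, had 131 and 120 fragments in Del(CBS1-2) against 136 and 92 in wt (limma adjusted p = 0.653). Its local background, the mean pileup over a window wider than the region in the same library, was 12.3 and 11.9 times the lowest background of the list in Del(CBS1-2) and 15.9 and 13.5 times in Del(CBS1), against 17.5 and 15.0 times in wt and 15.4 times in the unnumbered wt library.

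This broad level was lower from the Hoxd3 introns to Hoxd1. Of the 12 tested regions between CBS1 and Hoxd1, 9 had a local background below both wt replicates in both Del(CBS1-2) libraries, against 25.4% of all tested regions, and none had it above, against 42.4%. The other 3 are the regions around the Hoxd4-201 start, where the groups overlapped: the start region itself had 13.4 and 12.85 times in Del(CBS1-2) against 15.5 and 12.93 times in wt, and the unnumbered wt library, at 11.04 times, was below both mutant libraries. The median log2 ratio of the 12 regions was -0.33, beside 0.06 over all tested regions. In 7 of the 9 regions that the unnumbered wt library also held, both mutant values were below all 3 wt libraries, against 15.1% of all regions. Both tested regions on the other side of CBS1 had higher local backgrounds in Del(CBS1-2), the long start with 5.97 and 6.54 times against 5.49 and 4.66 times in wt. Neighbouring regions share the window, so these 12 values are not independent.

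Whether the other tested regions between CBS1 and Hoxd1 were called depended on the scaling. All were lower with median scaling and quantile normalization, except chr2:74739066-74739614 (0.06 and -0.21) and chr2:74740139-74741158, given below. The median log2 difference of the 14 tested cluster regions was -0.29 and -0.42 under these scalings, beside 0.06 and 0.01 over all tested regions. In the Hoxd3 and Hoxd4 intron, chr2:74719611-74719856 had 89 and 89 fragments in Del(CBS1-2) against 102 and 93 in wt. It was called lower with quantile normalization (-0.67, limma adjusted p = 0.0158) and with GC correction (-0.63, limma adjusted p = 0.00816), but not with median scaling. The Hoxd3 intron region chr2:74734872-74735552, with 94 and 99 against 120 and 91 fragments, did the same (quantile -0.67, limma adjusted p = 0.015). So did chr2:74759399-74761692 in the noncoding gene Haglr next to Hoxd1, with 111 and 98 fragments against 117 and 106 (-0.66, limma adjusted p = 0.0157). With median scaling, limma adjusted p was 0.0513, 0.0538 and 0.0626 for these. The unnumbered wt library had no call in the first, 133 fragments in the second and 97 in the third. Region chr2:74720137-74721169 had 166 and 164 against 178 and 144 fragments, and 122 in the unnumbered wt library. It was called lower with quantile normalization (-0.57, limma adjusted p = 0.0127). So was chr2:74741703-74742044, with 64 and 66 against 82 and 66 fragments (-0.64, limma adjusted p = 0.0284). Neither passed with GC correction (limma adjusted p = 0.0607 and 0.0611). Nearer to the last Hoxd3 start, chr2:74740139-74741158 had 177 and 164 fragments in Del(CBS1-2) against 134 and 98 in wt and 165 in the unnumbered wt library. Its difference was 0.30 with median scaling (limma adjusted p = 0.0848) and -0.04 with quantile normalization.

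Summed by segment, the stretch between CBS2 and CBS1 held 16.0% and 17.1% of the cluster's summit pileup in Del(CBS1-2) and 14.3% and 16.0% in Del(CBS1), against 7.38% and 6.71% in wt and 9.99% in the unnumbered wt library. Called regions covered 14.2% and 10.4% of this segment in Del(CBS1-2), against 8.40% and 6.70% in wt and 10.1% in the unnumbered wt library, below the second mutant library by less than the wt replicates differed. The stretch from CBS1 to Hoxd1 held 80.9% and 79.2% in Del(CBS1-2), against 90.1% and 91.2% in wt and 84.0% in the unnumbered wt library. Its summed pileup itself overlapped, at 1639 and 1545 fragments in Del(CBS1-2) against 1648 and 1535 in wt and 1177 in the unnumbered wt library. Called regions covered 20.3% and 20.8% of it in Del(CBS1-2) against 19.8% and 16.3% in wt and 20.8% in the unnumbered wt library. From CBS3 to CBS2 the shares were 3.01% and 3.74% against 2.52% and 2.08%, with 5.14% in the unnumbered wt library, and with regions of -log10 q of at least 5 only, that difference dropped to 0.20 points. The shares of the genotypes did not overlap in any of the 3 segments, and each exact two-sided permutation p was 0.333, the smallest possible. The 3 shares of a library sum to the whole, so they are not separate results. A region without a call adds nothing to a sum, as chr2:74714194-74714551 in wt, and the part of the calling threshold in these differences was not tested.

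In the flanking regulatory domains of HoxD the number and cover of regions overlapped between genotypes. Between Atp5g3 and Evx2, chr2:73908447-74652990, there were 15 and 11 regions in Del(CBS1-2) and 15 and 14 in wt, covering 7.36 and 7.11 kb against 8.13 and 5.31 kb. Between Hoxd1 and Hnrnpa3, chr2:74765143-75669407, the domain with the early enhancers, there were 30 and 34 regions in Del(CBS1-2) and 37 and 31 in wt, covering 13.1 and 13.7 kb against 16.1 and 11.2 kb. The union held 22 and 53 regions, of which 8 and 19 were tested. With median scaling, 1 centromeric region was higher and 2 were lower, and 2 telomeric regions were higher and 3 lower, in all 3 and 5 of 27, beside 16.7% higher and 6.73% lower over all tested regions. With quantile normalization 1 of the 27, a lower one, passed limma (2.22% higher and 3.25% lower over all), with 2 higher and 4 lower at an unadjusted p under 0.05.

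That region, chr2:74257048-74258705, is intergenic and had 48 and 31 fragments in Del(CBS1-2) against 77 and 54 in wt and 29 in the unnumbered wt library. It fell by 0.99 with median scaling (limma adjusted p = 5.03e-05) and by 1.08 with quantile normalization (limma adjusted p = 0.0101), while the unnumbered wt library was as low as the mutant. The region was chosen after its values were seen. The promoters of Lnpk and Mtx2, the genes next to the cluster on either side, had 73 and 89 against 56 and 59 fragments and 62 and 66 against 47 and 34 fragments, and neither was called different (limma adjusted p = 0.396 and 0.126).

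Genome-wide, H3K27ac heights of Del(CBS1-2) and wt differed in many regions, and the differences ran with the height and the GC content of the region. Of 31435 tested regions, 5235 (16.7%) were higher and 2115 (6.73%) lower in Del(CBS1-2) with limma and median scaling. Promoter regions, within 1 kb of a protein-coding start, gave 4353 of 13266 higher (32.8%) and 180 lower (1.36%). Distal regions gave 882 of 18169 higher (4.85%) and 1935 lower (10.7%). The median log2 difference was 0.29 over promoter and -0.11 over distal regions.

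With quantile normalization, which gives all 4 libraries the same distribution of heights, 699 regions (2.22%) were higher and 1023 (3.25%) lower. It called 4.15% of promoter regions higher and 1.15% lower, and 0.82% of distal regions higher and 4.79% lower. With GC correction on top, 489 regions (1.56%) were higher and 744 (2.37%) lower, with 1.53% of promoter regions higher and 0.995% lower, and 1.57% of distal regions higher and 3.37% lower. Quantile normalization left a promoter median of 0.12, and GC correction 0.03. The degrees of freedom of the fits were 315 with median scaling, 17.6 with quantile normalization and 52.7 with GC correction. Their part in the counts of calls was not tested. Quantile fits without 1 library, or with the wt replicates counted as 1 sample, had 2.38 to 2.82 degrees of freedom. With so few, their calls cannot show whether the quantile results depend on a single library. With the unnumbered wt library as 1 more wt sample and median scaling, limma called 0 regions in either direction among 27287, with 3029 at an unadjusted p under 0.05. With the wt replicates counted as 1 sample, median scaling called 3058 higher (9.73%) and 628 lower (2%). The counts were 2231 and 768 without the second Del(CBS1-2) library, 3374 and 836 without the first wt library, 3556 and 1122 without the second, and 3933 and 1557 without the first Del(CBS1-2) library. Under both median scaling and quantile normalization, 697 regions (2.22%) were higher and 768 (2.44%) lower.

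The median difference ran from -0.22 in the lowest to 0.37 in the highest of 10 equal groups of regions by mean pileup, and stayed between -0.02 and 0.03 in all 10 with quantile normalization. It also ran with GC content of the 200 bp around the summit, from -0.02 in the lowest to 0.48 in the highest of 5 equal groups of promoter regions, and from -0.22 to 0.03 in distal regions. The unnumbered wt library minus the wt replicates ran the same way, from -0.06 to 0.52 in promoters and from -0.50 to -0.02 in distal regions. A difference of this size and direction was thus also present between wt libraries. Its part in the single results was not tested beyond the corrected fits.

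**Figure D3:**
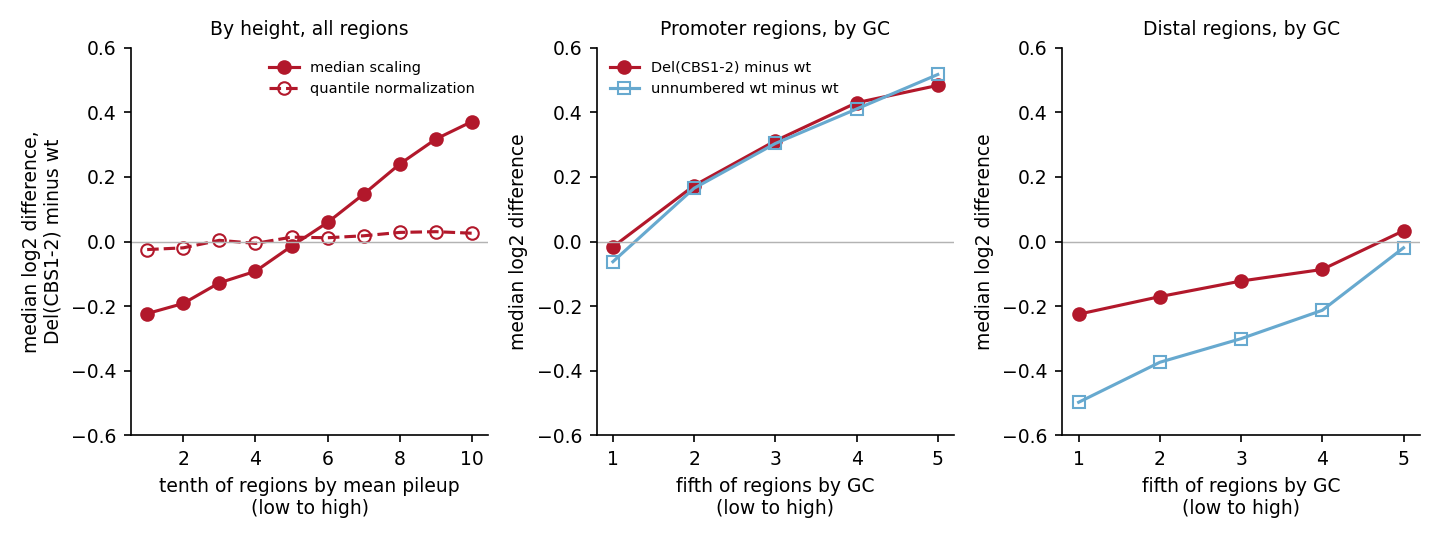
Median log2 difference of summit pileup, Del(CBS1-2) minus wt, in 10 equal groups by mean pileup under median scaling and quantile normalization (left), and in 5 equal groups by GC content in promoter (middle) and distal (right) regions under median scaling, with the unnumbered wt library minus the wt replicates as open squares. In promoters the median ran from -0.02 to 0.48 for Del(CBS1-2) and from -0.06 to 0.52 for the unnumbered wt library.

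Regions high in the mutant were also placed against the unnumbered wt library. Of 5188 regions called higher with median scaling and present in all 5 lists, 2869 (55.3%) were above all 3 wt libraries, the unnumbered one included, in both mutant libraries. Of 1546 called lower, 705 (45.6%) were below all 3. With quantile normalization the shares were 43.0% of 682 and 34.3% of 896. Over all 27287 regions of the 5 lists, 18% were above and 12.1% below all 3 wt libraries with median scaling. With quantile normalization 10.9% were above and 10.7% below. The called regions were chosen for standing apart from the wt replicates, so their shares are a description.

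Among gene lists of tail bud and axis formation, promoters of presomitic and paraxial mesoderm genes had a median below that of all promoters. Of 10 tested members, 0 were higher and 2 lower with median scaling, 0 and 5 with quantile normalization, and 0 and 5 with GC correction. Their medians were -0.37, -0.45 and -0.39 under these, beside 0.29, 0.12 and 0.03 over all promoter regions. Across all promoters 1.36%, 1.15% and 0.995% were called lower. The primitive streak list, which shares Mesp2, Msgn1 and Tbx6 with it, was also below all promoters, with medians of -0.10, -0.28 and -0.31. Both lists were chosen with earlier results of these data known.

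Msgn1, a transcription factor that drives presomitic mesoderm formation, had 94 and 101 fragments in Del(CBS1-2) against 135 and 92 in wt, so the raw values overlapped. It fell by 0.46 with median scaling (SE 0.15, limma adjusted p = 0.0163) and by 0.90 with GC correction (limma adjusted p = 0.000113). It was not called with scaling by the lowest background (-0.295, limma adjusted p = 0.23) or without a mean-variance trend (limma adjusted p = 0.11). The unnumbered wt library had 60 fragments, below both mutant libraries, and with it added the difference was -0.12 (limma adjusted p = 0.913). The call was lost without the first wt library (limma adjusted p = 0.304), without the first or the second Del(CBS1-2) library (0.0852 and 0.0598) and with the wt replicates counted as 1 sample (0.0866).

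Lfng, a glycosyltransferase of the segmentation clock, had 43 and 47 fragments in Del(CBS1-2) against 71 and 51 in wt, and no call in the unnumbered wt library. The groups did not overlap, and the difference was -0.68 (SE 0.19, limma adjusted p = 0.00526). With scaling by the lowest background the difference was -0.52 and not called (limma adjusted p = 0.0591). It was -0.69 with GC correction (limma adjusted p = 0.025), and without the first wt library it was no longer called (limma adjusted p = 0.113). Tbx6, the T-box factor of paraxial fate, had 138 and 131 against 152 and 113 fragments and was called lower only after quantile normalization (-0.56, limma adjusted p = 0.0199) or GC correction (-0.59, limma adjusted p = 0.00465). Hes7, the oscillating repressor of the clock, had 261 and 254 against 265 and 200 fragments, with -0.44 (limma adjusted p = 0.0178) after quantile normalization. Dll3, a Notch ligand that acts within the cell, had 234 and 191 against 219 and 163 fragments, with -0.46 (limma adjusted p = 0.0372). Dll1, the Notch ligand that activates neighbours, had 234 and 235 against 189 and 163 fragments, so its raw values were higher in both mutant libraries. It was called lower only with GC correction (-0.40, limma adjusted p = 0.0261), in the opposite direction to the raw values. The unnumbered wt library was below both mutant libraries in Msgn1, Tbx6, Hes7, Dll1 and Dll3, at 60, 103, 184, 160 and 126 fragments.

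In Del(CBS1), set against the same wt libraries, Msgn1 had 148 and 127 fragments, Lfng 83 and 61, and Tbx6 220 and 191.

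Promoters of the tail bud and axial progenitor list had a median of 0.41 with 7 of 12 higher and 0 lower under median scaling, beside 32.8% of all promoters higher. With quantile normalization and with GC correction 0 of the 12 passed in limma, with 3 and 0 at an unadjusted p under 0.05. Nkx1-2, a marker of axial progenitors, had 217 and 247 fragments in Del(CBS1-2) against 140 and 116 in wt and 187 in the unnumbered wt library, a difference of 0.59 with median scaling (limma adjusted p = 0.000104) and 0.13 with GC correction. Cdx2 had 248 and 264 against 171 and 145 fragments, and 267 in the unnumbered wt library. The difference was 0.43 (limma adjusted p = 0.0029), and -0.07 with GC correction. The values of T, 207 and 251 against 187 and 126 fragments, were not called different (limma adjusted p = 0.0531). T, Cdx2, Msgn1 and Tbx6, markers of a posterior stembryo, had promoter regions in all 4 libraries.

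Wnt targets and feedback genes gave 7 of 12 higher and 0 lower with median scaling, and 1 and 0 with quantile normalization and with GC correction. Of all promoters, 32.8%, 4.15% and 1.53% were higher under these. Notum, a secreted enzyme that inactivates Wnt ligands, was that promoter. It had 171 and 179 fragments in Del(CBS1-2) and 94 and 89 in Del(CBS1), against 55 and 66 in wt and 152 in the unnumbered wt library. The difference was 1.26 with median scaling (SE 0.15, limma adjusted p = 2.17e-11) and 0.73 with GC correction (limma adjusted p = 0.00292). With the unnumbered wt library added it was 0.86 (limma adjusted p = 0.37), in a fit that called 0 regions genome-wide. Axin2, a feedback inhibitor of Wnt signalling, had 284 and 293 against 163 and 153 fragments, with 0.60 (limma adjusted p = 1.89e-05) and -0.02 with GC correction.

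Pluripotency genes shared with the epiblast gave 5 of 7 higher with median scaling, 3 with quantile normalization and, in limma, 0 with GC correction (2 at an unadjusted p under 0.05), beside 32.8%, 4.15% and 1.53% of all promoters. Lin28a, an RNA-binding protein of early cells, had 368 and 423 fragments in Del(CBS1-2) against 207 and 194 in wt and 304 in the unnumbered wt library, a difference of 0.71 (limma adjusted p = 2.37e-08) and 0.23 with GC correction (limma adjusted p = 0.16). Dnmt3b, a DNA methyltransferase of the epiblast, had 69 and 68 against 37 and 28 fragments, but 105 in the unnumbered wt library. Sox2 had 114 and 127 against 63 and 64 fragments, and 120 in the unnumbered wt library. Of the naive pluripotency list, 0 of 4 tested were called by limma under median scaling, quantile normalization or GC correction, with 1 at an unadjusted p under 0.05 in each.

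In the other Hox clusters, promoters called with median scaling were all higher, with 2 of 5 in Hox A, Evx1 included, 4 of 9 in Hox B and 3 of 4 in Hox C. Their medians were 0.18, 0.27 and 0.40, beside 0.29 over all promoters, of which 32.8% were called higher. With GC correction 2 of Hox A were lower and none of the others passed. Hoxb9, a more posterior member, had 244 and 272 fragments in Del(CBS1-2) against 129 and 124 in wt and 167 in the unnumbered wt library, a difference of 0.76 (limma adjusted p = 4.17e-07), 0.40 with quantile normalization (limma adjusted p = 0.0486) and 0.24 with GC correction (limma adjusted p = 0.238). The long Hoxd3/Hoxd4 start, at 0.89, had the largest difference of the Hox promoters reported here under median scaling.

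Genes of CTCF and cohesin gave 10 of 13 higher and 0 lower with median scaling, beside 32.8% and 1.36% of all promoters, and, in limma, 0 of 13 with GC correction, with 1, lower, at an unadjusted p under 0.05. Ctcf itself had 287 and 288 fragments in Del(CBS1-2) against 166 and 142 in wt and 237 in the unnumbered wt library, with 0.64 (limma adjusted p = 6.48e-06) and 0.05 with GC correction. The retinoic acid list gave 4 of 10 higher, the neural list 1 of 7, the endoderm list 1 of 6 and the cardiac and vascular list 0 of 2 with median scaling, none lower, against the same 32.8% and 1.36%, and 0 of these 25 passed with GC correction in limma, with 1, in the retinoic acid list, at an unadjusted p under 0.05. Of other cell types the aggregates could hold, 6 of 15 genes had a promoter region and 3 were tested, of which Prdm1, a germ cell factor, was higher with 24 and 31 against 14 and 14 fragments and 26 in the unnumbered wt library. The primitive streak list gave 1 of 8 higher and 1 lower, Evx1 and Msgn1, and 0 and 2 with GC correction, Msgn1 and Tbx6.

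**Figure D4:**
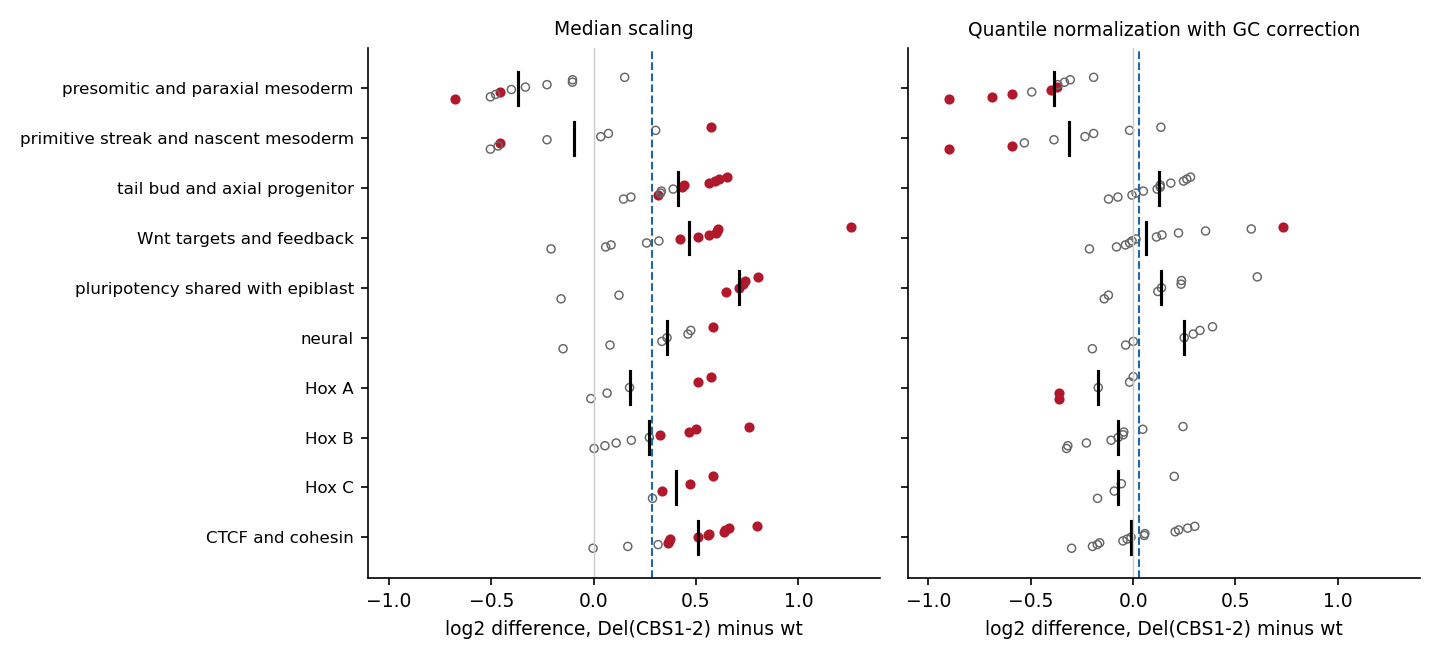
Log2 difference of promoter summit pileup, Del(CBS1-2) minus wt, for the tested genes of 10 lists under median scaling (left) and quantile normalization with GC correction (right); filled, limma adjusted p under 0.05, black bars, list medians, dashed line, median over all promoter regions (0.29 and 0.03). The presomitic and paraxial list lies left of the dashed line in both panels.

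The single regions with the largest differences were taken by a rule, 10 in each direction among promoter and distal regions that passed limma with median scaling and did not overlap between genotypes. Genome-wide, 35.8% of tested regions had both scaled mutant values above both scaled wt values and 24.8% below. The 10 promoters that rose most were Fam222a, Nnat, Jak1, Elmod2, Notum, Dcun1d4, Cars, Riox1, Pdlim7 and Ypel2, by 1.14 to 1.43, and all 10 passed with quantile normalization. In 5 of the 10 the mutant libraries were above the unnumbered wt library too. Fam222a had 95 and 107 fragments in Del(CBS1-2) and 52 and 57 in Del(CBS1), against 33 and 28 in wt and 72 in the unnumbered wt library. Nnat, an imprinted proteolipid gene, had 71 and 87 against 31 and 20 fragments and 44 in the unnumbered wt library. Jak1, a kinase of cytokine receptors, had 43 and 41 against 16 and 11 fragments and 32 in the unnumbered wt library. Elmod2, with 38 and 44 against 14 and 12 fragments, was at 57 in the unnumbered wt library.

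The 10 promoters that fell most were Gm2000, Slc19a3, Rasgrp3, Gm10428, Wbp1l, Platr25, Slc22a5, Heatr5a, Vegfd and Adam2, by 0.96 to 1.42, of which 9 passed with quantile normalization. Their pileups were low, between 11 and 29 fragments in Del(CBS1-2) and between 21 and 49 in wt. Slc19a3, a thiamine transporter gene, had 20 and 16 against 37 and 33 fragments and 29 in the unnumbered wt library. Vegfd, a growth factor of lymphatic vessels, had 14 and 14 against 26 and 21 fragments and 19 in the unnumbered wt library.

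Of the distal regions that rose most, 9 lay nearest to the starts of Celsr1, Scarf2, Mycn, Ier2, Gm9376, Hes1, Tiam2, Gm9803 and Peg3, by 1.03 to 1.18, and all 9 passed with quantile normalization. A region 64.3 kb from Hes1, a Notch target, had 64 and 73 fragments in Del(CBS1-2) against 32 and 23 in wt, and 64 in the unnumbered wt library. A region 260 kb from Mycn, a gene for progenitor growth, had 85 and 82 against 38 and 27 fragments and 69 in the unnumbered wt library. In 6 of the 9 both mutant libraries were above the unnumbered wt library after median scaling, and 1 had no call in it. A nearest start does not say which gene a region acts on.

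The 10 distal regions that fell most lay nearest to Ano4, Pcdh18, Fn1, Sema3a, Tac1, Qk, Gm6993, Rc3h1, Robo2 and Nkain3, by 1.36 to 1.77, and all 10 passed with quantile normalization. The largest fall was at chr10:89138021-89138943, 118 kb from Ano4, with 24 and 20 fragments in Del(CBS1-2) against 76 and 54 in wt (SE 0.22, limma adjusted p = 3.45e-11). Del(CBS1) had 57 and 54 fragments there and the unnumbered wt library 28. The region 20.9 kb from Fn1, the gene of fibronectin, had 18 and 16 against 41 and 42 fragments and 23 in the unnumbered wt library. In 5 of the 10 the mutant libraries were below the unnumbered wt library, and the other 5 had no call in it.

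**Figure D5:**
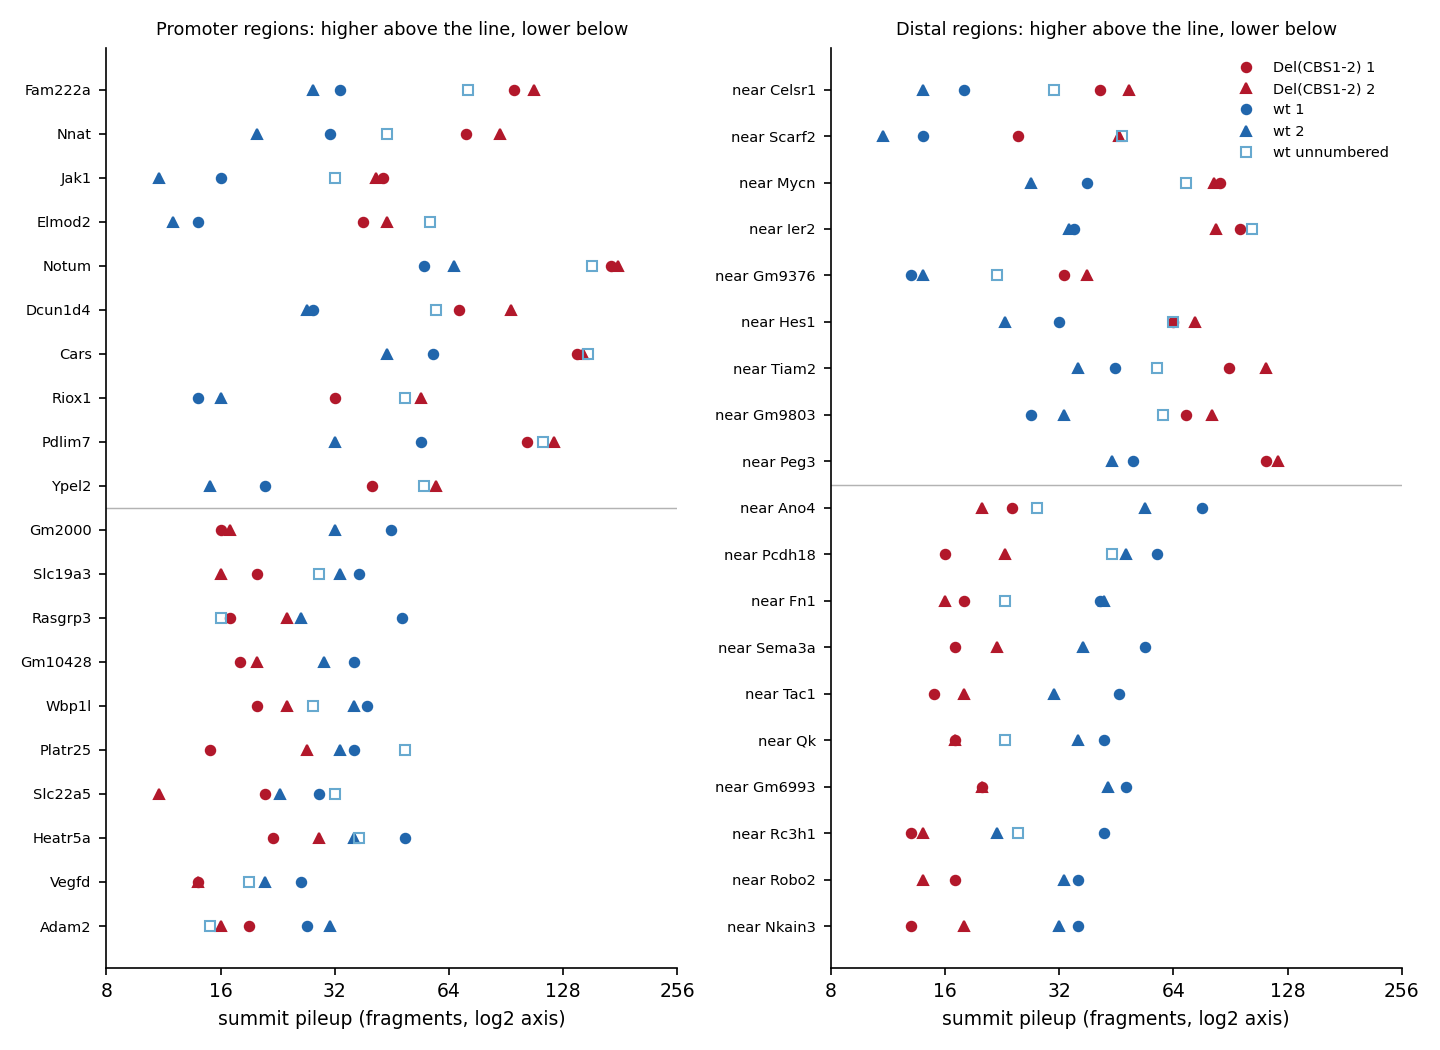
Summit pileup in fragments (log2 axis) of the promoter (left) and distal (right) regions named for the largest rise (10 and 9) and the largest fall (10 each) in Del(CBS1-2), with a point for each Del(CBS1-2) library (red), wt replicate (blue) and the unnumbered wt library (open square). Fam222a had 95 and 107 fragments in Del(CBS1-2) against 33 and 28 in wt, and the region near Ano4 24 and 20 against 76 and 54.

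By presence, 3406 regions were in both Del(CBS1-2) lists and in neither wt list, and 2317 (2.73%) in both wt lists and in neither Del(CBS1-2) list. Of the first, 705 were promoter regions (3.73% of 18919) and 2701 distal (4.1% of 65900). Of the second, 214 were promoter (1.13%) and 2103 distal (3.19%). They were small and low, with a median highest pileup of 19 fragments in the distal gained and 18 in the distal lost regions, beside 38 in distal regions of all 4 lists. With the unnumbered wt list counted among the wt lists, 2029 remained gained and 604 lost. Without the first or second Del(CBS1-2) list the gained count was 11968 or 11175 and the lost count 3985 or 4228, and without the first or second wt list the gained count was 7376 or 5188 and the lost count 7575 or 12584. By the rule of presence, an added wt list can only lower these counts and a list left out can only raise them.

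H3K27ac lists that had no part in choosing these regions were set against them. Distal gained regions overlapped the Del(CBS1-2) lists of 120 h in 49.2% and 47.8%, and the wt replicate lists of 120 h in 32.4% and 27.8%. For distal lost regions the shares were 23.4% and 23.9% in Del(CBS1-2) and 17.8% and 16.2% in wt at 120 h. Distal regions in exactly 2 of the 4 lists, which include the gained and lost ones, gave 36.1% and 35.6% in Del(CBS1-2) and 25% and 22.5% in wt. At 96 h, the Del(CBS1) lists held 31.8% and 34.3% of distal gained, 54.7% and 52.6% of distal lost and 41.2% and 40.6% of distal regions in exactly 2 lists. The unnumbered wt list held 31.2%, 24.3% and 27.5% of them, and 75.9% of promoter gained, 43.5% of promoter lost and 64.2% of promoter regions in exactly 2 lists. Distal gained regions had a higher share than distal lost regions in the unnumbered wt list and in these 120 h lists, and a lower one in Del(CBS1) at 96 h.

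Regions of other factors in wt at 96 h were set against the same regions. CDX2 lay in 0.926% of the distal gained, 0.713% of the distal lost and 0.926% of the distal regions in exactly 2 lists, beside 12.2% of distal regions in all 4 lists. NIPBL, the loader of cohesin, lay in 7.18% of the gained, 15.3% of the lost and 10.9% of the regions in exactly 2 lists. H3K27me3, the mark of Polycomb repression, lay in 25.2% of promoter gained and 4.67% of promoter lost regions, beside 19.7% of promoter regions in exactly 2 lists and 9.68% of all promoter regions.

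Sequence letters were counted on both strands in the 200 bp around each distal summit. TTTATNG (CDX) occurred in 6.15% of gained, 9.37% of lost and 7.61% of all distal regions. CAGGTG (E-box) occurred in 16.7% of gained, 10.3% of lost and 13.5% of all, CAGCAGG (ZIC) in 10.4%, 6.13% and 8.56%, and CTTTGAT (TCF/LEF) in 3.22%, 4.23% and 3.17%. The median GC content was 50.5% in gained, 46% in lost and 48.5% in all distal regions, and its part in the letter counts was not tested. ATTTGCAT (POU) occurred in 1.04% of gained, 0.761% of lost and 1.01% of all, ACAATGG (SOX) in 2.78%, 2.52% and 2.61%, and AGGTGTGA (T-box) in 0.555%, 0.761% and 0.874%.

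Median differences by chromosome, a check of the dosage of whole chromosomes in the edited clones, ran from 0.02 to 0.09 in the first and from 0.00 to 0.10 in the second Del(CBS1-2) library over 20 chromosomes. No chromosome stood apart at the size of a gained or lost copy.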

How the data were processed

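H3K27ac lists of 2 Del(CBS1-2) and 2 wt libraries at 96 h were used. Per the labels and the study's methods, the authors trimmed reads (cutadapt 1.16), mapped them (Bowtie2 2.3.4.1, mm10), kept proper pairs (SAMtools 1.8) and called peaks per library with MACS2 2.1.1.20160309 without an input control. The deposited values are fold enrichment (a ratio of pileup plus 1 to local background plus 1) and -log10 p and q at each summit, from which pileup and background were solved (at least 99.9945% of peaks). No read counts were used here, so regions missing from a list have no height. Regions overlapping by 1 base or more were merged, and 31435 of 31436 found in all 4 lists were tested with limma 3.58.1 (R 4.3.3) on log2(pileup + 1) without a covariate, scaled by the median. The fit had 2 samples a group, so its spread was pooled over regions. It was tested on simulated counts without a height or GC trend, so that test does not cover the trends seen here. Benjamini-Hochberg adjustment ran over all tested regions at 0.05. Quantile normalization and other settings were alternatives, and GC correction (quantile normalization, then 20 bins), the unnumbered wt library, cyclic loess and the single wt sample were added after seeing the data. Named regions were all regions of HoxD, the 10 with the largest change in each direction and class among those called and not overlapping, and list members that passed, of which 1 distal region and 1 Hox A gene are not reported here. Members and lists were chosen with earlier results of these data known. Sequences are RefSeq GRCm38 and transcripts GENCODE vM21. Scripts used Python 3.11.15.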

Additional observations from a re-analysis of the deposited data

How the results depend on the processing

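Counts of calls differed between scalings and with the libraries in the fit, and the cause was not tested. Against 5235 higher and 2115 lower regions with median scaling, limma called 847 lower with scaling by the lowest background, 699 higher and 1023 lower with quantile normalization, and 1431 higher with cyclic loess. It called 2092 higher without a mean-variance trend, 489 higher and 744 lower with GC correction, and 3058 higher and 628 lower with the wt pair as 1 sample. Leaving out 1 library gave 2231 to 3933 higher and 768 to 1557 lower. Limma called 0 in both directions with the unnumbered wt library added (3029 at an unadjusted p under 0.05, and 1380 with quantile normalization). Quantile fits with 1 library left out or the wt pair as 1 sample had 2.38 to 2.82 degrees of freedom. Their calls cannot show dependence on a single library. Regions gained by presence numbered 5188 to 11968 with 1 list left out, 2029 with the unnumbered wt list and 2342 with -log10 q of at least 5, against 3406. Regions lost numbered 3985 to 12584 and 604, and 835 with -log10 q of at least 5, against 2317. The direction of the presence counts is set by the rule when a list is left out or added, so it does not measure dependence on a library.

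At HoxD, 63 of 65 alternative values of segments, flanks and the long start share moved by less than the spread between replicates. Leaving out 1 of 2 replicates cannot move a difference by more than that spread, so those values had no way to differ. A change of sign also counted as within it: cover of the centromeric domain differed by 1.93 kb without wt replicate 1 and by -0.895 kb without wt replicate 2. With -log10 q of at least 5 the CBS3 to CBS2 difference was 2.55 points of cover and 0.20 points of pileup.

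Replicate numbers did not pair the samples: the correlation of replicate deviations was 0.05. A replicate block gave 5795 higher and 2365 lower, 761 and 1051 with GC correction, and 1858 and 2077 with quantile normalization.

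Of 101 named results, quantile normalization left 55 on the same side with the same sign, GC correction 46, and the unnumbered wt library 11 of 88. The fit with the unnumbered wt library called 0 regions, so a called result could not stay on the same side there. A pseudocount of 5 changed none of the 101. Among the 101, the following log2 differences turned sign. The HoxD region starting at 74721362 had 0.078 with the lowest background, 0.049 with the unnumbered wt library and -0.17 to 0.00010 with 1 library left out, the highest without wt replicate 1. The HoxD region starting at 74733609 had 0.060 with the lowest background, and -0.27 to 0.064 with 1 library left out, the highest without wt replicate 1. The HoxD region starting at 74739066 had -0.21 with quantile normalization, -0.19 with GC correction, with or without the block, and -0.21 with cyclic loess. The HoxD region starting at 74740139 had -0.042, -0.23 and -0.043 under these settings and -0.072 with quantile normalization and the unnumbered wt library. The HoxD region starting at 74749553 had 0.0056 with the lowest background. Lnpk had -0.23 with GC correction and -0.022 with quantile normalization and the unnumbered wt library, and Mtx2 had -0.00061 in the second of these. With GC correction, with or without the block, Evx1 had -0.017, Cdx1 -0.0054, Cdx2 -0.074, Axin2 -0.017, Ccnd1 -0.037, Foxb1 -0.036, Hoxb1 -0.11, Hoxb7 -0.048, Hoxb8 -0.045, Hoxc4 -0.17, Hoxc5 -0.092, Rad21 -0.16, Smc3 -0.050, Stag2 -0.17 and Pds5a -0.010. With quantile normalization Cdx1 had -0.045, Hoxb1 -0.047 and Hoxc4 -0.020. With cyclic loess Cdx1 had -0.084, Hoxb1 -0.090, Hoxc4 -0.054 and Smc3 -0.018. With quantile normalization and the unnumbered wt library Cdx2 had -0.046, Hoxb1 -0.074 and Hoxc4 -0.11.

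Low regions are limited by depth: near the lower end of the lists a region can be missed in one library of equal level, and no height exists for a region that was not called.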
